A study of Mus musculus with 2 samples.

Results

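The genes described here handle phosphate and vitamin D in the kidney. They are the sodium-phosphate carriers Slc34a1, Slc34a3 and Slc20a2, the scaffold genes Pdzk1 and Slc9a3r1, the hormone receptor genes Kl, Fgfr1 and Pth1r, and the vitamin D hydroxylase genes Cyp27b1 and Cyp24a1. They were chosen by symbol from the deposited feature tables, and all 10 were found among 31058 features. Their levels were read in 2 droplet single-cell libraries made from total kidney cells of C57Bl/6 mice, females by the series title, at 9 weeks of age. Both groups had rhabdomyolysis, the breakdown of skeletal muscle, and received either vehicle or CA3, a compound known to block YAP1, the coactivator held back by Hippo signalling. The genotype of both groups was Pax8.rtTA;TetO.Cre;R26.FUCCI2aR, which allows a fluorescent cell cycle reporter to be switched on in cells of the tubule, where the Pax8 promoter is active. There was no library from uninjured kidney, so no level below is a response to injury. The sources used here do not give the dose of CA3, the times, whether the reporter was induced, or how many animals stood behind each library.

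Dying muscle releases phosphate, and the kidney is the organ that must clear it. The proximal tubule takes filtered phosphate back through carriers in its brush border, held there by PDZ scaffold proteins. Parathyroid hormone (PTH), through its receptor, and FGF23, through FGF receptors with the co-receptor Klotho, withdraw these carriers and so let phosphate pass into the urine. The same hormones set the hydroxylases that make and destroy active vitamin D, and active vitamin D in turn acts through its own receptor on calcium and phosphate genes.

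The vehicle library held 1967 barcodes and 19592239 unique molecular identifiers (UMIs), and the CA3 library 1724 barcodes and 17013222 UMIs. After filtering, 1767 vehicle and 1494 CA3 cells were kept, and 1 barcode occurred in both libraries. Each group had 1 library, so no difference between them has a replicate check and no test was made. An effect of CA3 cannot be told apart from a difference between animals or preparations. Levels are given as CPM, which is UMIs per 1000000 UMIs summed over all but the mitochondrially encoded genes. Intervals are at the 95% level and cover only the error of counting. A ratio is CA3 over vehicle, and a ratio of at least 1.5 times either way on at least 20 UMIs is called past the limit. Clusters were made without these genes and without a list of 74 related genes, and were named by markers. The proximal tubule-like class took 1432 vehicle and 1165 CA3 cells in 10 clusters. Of these clusters 5, 7, 8 and 14 were S1-like, the early segment, by a marker list with Slc5a2 and Slc5a12. Clusters 0, 1, 10 and 11 were S2-like, cluster 13 was S3-like with Slc7a12 and Slc22a7, and cluster 4 matched no segment. Clusters 11 and 14 were led by stress genes such as Cyr61 and Fosb. Free RNA was gauged through Slc34a1, a gene that lymphocytes should lack. T or NK-like cells held 429 CPM of Slc34a1, and a UMI was seen in 25.9% of them when each cell was thinned to 2000 UMIs (40.8% unthinned, median depth 5588). In each library a few of these cells held most of the Slc34a1 UMIs of the class. No doublet caller was run, and the part of doublets in these UMIs was not tested. In the proximal tubule class the thinned share was 97.0% (99.2% unthinned, median depth 7405). RNA from a single source keeps its genes in 1 ratio, so UMIs of other genes are also given for each 100 UMIs of Slc34a1 in the same cells.

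Slc34a1 lies at chr13:55398187-55415592 on the plus strand (mm10) and Slc34a3 at chr2:25228898-25234364 on the minus strand. Both encode brush border carriers of the same family, and in these cells their RNAs were distributed differently along the proximal tubule, so bases before each start are shown. The sequences are RefSeq's, on GRCm38.p6, written 5′ to 3′ along the gene's own strand. Capitals mark the letters GTTAAT or their reverse complement ATTAAC, a short site of HNF1, a transcription factor of the proximal tubule.
Slc34a1, chr13:55399398-55399647: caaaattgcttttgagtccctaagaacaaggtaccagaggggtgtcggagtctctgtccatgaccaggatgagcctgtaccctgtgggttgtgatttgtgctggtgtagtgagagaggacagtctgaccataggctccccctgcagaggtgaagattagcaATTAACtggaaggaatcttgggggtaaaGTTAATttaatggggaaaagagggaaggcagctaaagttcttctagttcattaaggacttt
Slc34a3, chr2:25234365-25234475: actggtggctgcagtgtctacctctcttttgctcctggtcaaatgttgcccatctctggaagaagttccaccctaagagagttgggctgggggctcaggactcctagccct
The Slc34a1 window of 250 bases holds it at 89 and at 61 bases before the RefSeq start. The window lies inside the GENCODE gene span, where it overlaps no exon. The bases right after this RefSeq start were found as an unbroken run in no GENCODE transcript of Slc34a1. On both strands, 6.43% of 32851 promoters of the same length hold these letters. The Slc34a3 stretch of 111 bases is the part of the RefSeq window outside GENCODE exons, which cover 139 of its 250 bases, and the whole window holds no such site. Of the 10 genes, 7 had a promoter in the table, and only Slc34a1 held GTTAAT. The HNF4 core CAAAGTCCA, held by 0.384% of promoters on both strands, and TATAAA on the plus strand, held by 7.59%, were in none of the 7. A match of letters is a description and not a bound site.

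Slc34a1, the main phosphate carrier of the brush border (NaPi-IIa), was the most UMI-rich of the 10 genes, and 96.2% of its 97365 UMIs in kept cells lay in the proximal tubule class. Its level there was 4665 CPM in the vehicle library and 4828 CPM in the CA3 library, a ratio of 1.03 (1.02 to 1.05). S1-like cells held 4966 CPM and S2-like cells 5040 CPM over both libraries, while the 44 S3-like cells held 675 CPM. S3-like cells thus carried 0.134 times the level of S2-like cells. Leaving out the 3 cells of each library with most Slc34a1 UMIs took that ratio to 0.0454, and a stricter cell filter (1000 genes or more, 25% or less mitochondrial UMIs) took it to 0.297. The S3-like cells were 33 from the vehicle library, at 824 CPM, and 11 from the CA3 library, at 282 CPM (ratio 0.343, 0.222 to 0.509), where 34.7% of features were past the limit and 3 cells held 71.6% and 82.1% of the Slc34a1 UMIs. The S3-like share of cells with a UMI after thinning was 40.9% (26.3 to 56.8%; 65.9% unthinned), against 25.9% (19.0 to 33.7%) in T or NK-like cells, so the intervals overlapped. Within the S1-like group the clusters ranged from 2516 CPM in cluster 7 to 6427 CPM in cluster 8, a spread that the segment name does not describe. Over the 19 clusters with at least 30 cells, the genes most like it were Slc4a4, the basolateral bicarbonate carrier (Pearson r = 0.989 of log2(CPM + 10)), Car14 (0.980) and Slc13a1 (0.973). All such correlations rest on the same libraries and cells, so they describe a shared place of expression.

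**Figure D1:**
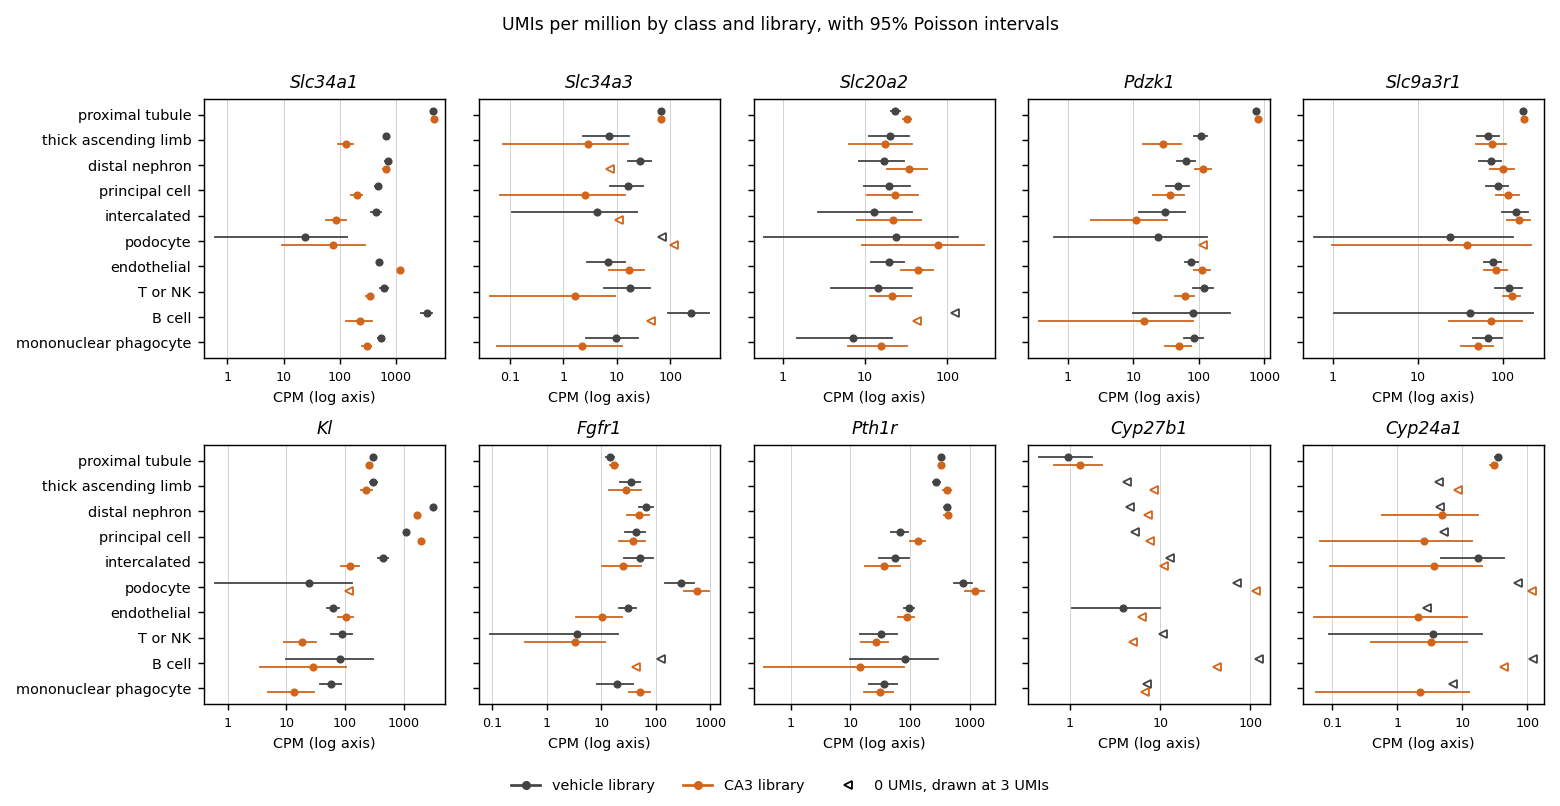
Levels of the 10 genes in each class, in CPM on a log axis, with a point and a 95% Poisson interval for the vehicle and the CA3 library; open triangles mark 0 UMIs, drawn at the CPM of 3 UMIs. Slc34a1 and Pdzk1 are highest in the proximal tubule, Kl in the distal nephron and principal cells, and Pth1r and Fgfr1 in the 9 podocyte-like cells.

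Slc34a3, the second brush border carrier (NaPi-IIc), was an early-segment gene in these cells. S1-like cells held 120.0 CPM in the vehicle library and 119.9 CPM in the CA3 library, and S2-like cells 15.6 and 9.70 CPM. Over both libraries the S1-like level was 9.32 times the S2-like level (7.60 to 11.5), while Slc34a1 differed little between them. The ratio was 13.2 under the stricter cell filter and 3.55 at a coarser clustering, which draws the segments differently. A UMI was found in 42.0% of S1-like and 6.49% of S2-like cells, or 15.03% and 2.03% after thinning, against 0.680% of T or NK-like cells (0.0172 to 3.73%). S3-like cells held 1 UMI in 44 cells. The genes most like Slc34a3 over the clusters were Slc5a2 (r = 0.967), the early-segment glucose carrier SGLT2, then Ugt2b38 (0.938). The clusters were in part named by Slc5a2, so this places Slc34a3 beside the marker and adds no separate evidence.

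In the proximal tubule class Slc34a3 was at 67.3 CPM in the vehicle library and 66.5 CPM in the CA3 library, a ratio of 0.988 (0.886 to 1.10). Below this near-equal sum, its clusters diverged. In cluster 8 it was at 156 against 82.4 CPM (ratio 0.529, 0.372 to 0.744), and in the stress-led cluster 11 at 21.0 against 5.89 CPM (0.281, 0.111 to 0.624), with 75% of the CA3 UMIs in 3 cells. In cluster 14, the other stress-led cluster, it was at 113 against 189 CPM (1.67, 1.26 to 2.20). In clusters 8, 11 and 14, 17.4%, 13.8% and 19.1% of all features with at least 20 UMIs were past 1.5 times, so such cluster ratios were common. In cluster 5, which held most of its UMIs, Slc34a3 was at 171 and 154 CPM.

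Slc20a2 (chr8:22476788-22569612, plus strand) encodes Pit-2, a sodium-phosphate carrier of another family, found in many cell types and also at the brush border. Its 692 UMIs were spread more widely than those of the other carriers, with 79.0% in the proximal tubule class. It reached 27.7 CPM there, 27.1 CPM in endothelial-like cells and 23.5 CPM in distal nephron-like cells, with overlapping intervals. T or NK-like cells held 19.2 CPM (11.2 to 30.8), which is 4.47 UMIs for each 100 of Slc34a1 against 0.584 in the proximal tubule class. Smim19 overlaps Slc20a2 on the opposite strand and Gm17491 on the same one, and how the counting split them was not tested.

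Of the 10 genes, Slc20a2 stood farthest above 1 in the proximal tubule class. Its sums were 245 vehicle and 302 CA3 UMIs, at 23.3 and 32.7 CPM, a ratio of 1.40 (1.18 to 1.67), short of the limit. Among features with at least 500 UMIs in the class, 1.12% were at least as far from 1, and among those with 100 to 500 UMIs 6.90% were. Slc20a2, with 547 UMIs, lay near the border of these 2 groups. S1-like cells gave 1.42 (1.12 to 1.80) and S2-like cells 1.38 (1.06 to 1.80). The ratio was above 1 in 5 of 6 clusters with enough UMIs, and it was 1.62 (1.197 to 2.21) in cluster 5, at 35.3 and 57.1 CPM, where 10.7% of features were past the limit. Slc20a2 was also richest in the clusters with the deepest cells. It was at 46.8 CPM in cluster 5 (median 10822.5 UMIs a cell), but at 8.35 CPM in cluster 7 (6584.5 UMIs). Depth differed between the libraries too, at medians of 7192 and 7895 UMIs in proximal tubule-like cells. With every cell thinned to 2000 UMIs, which weights cells equally, the ratio was 1.13 (0.748 to 1.70). The part of cell depth in the ratio was not tested beyond this.

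**Figure D2:**
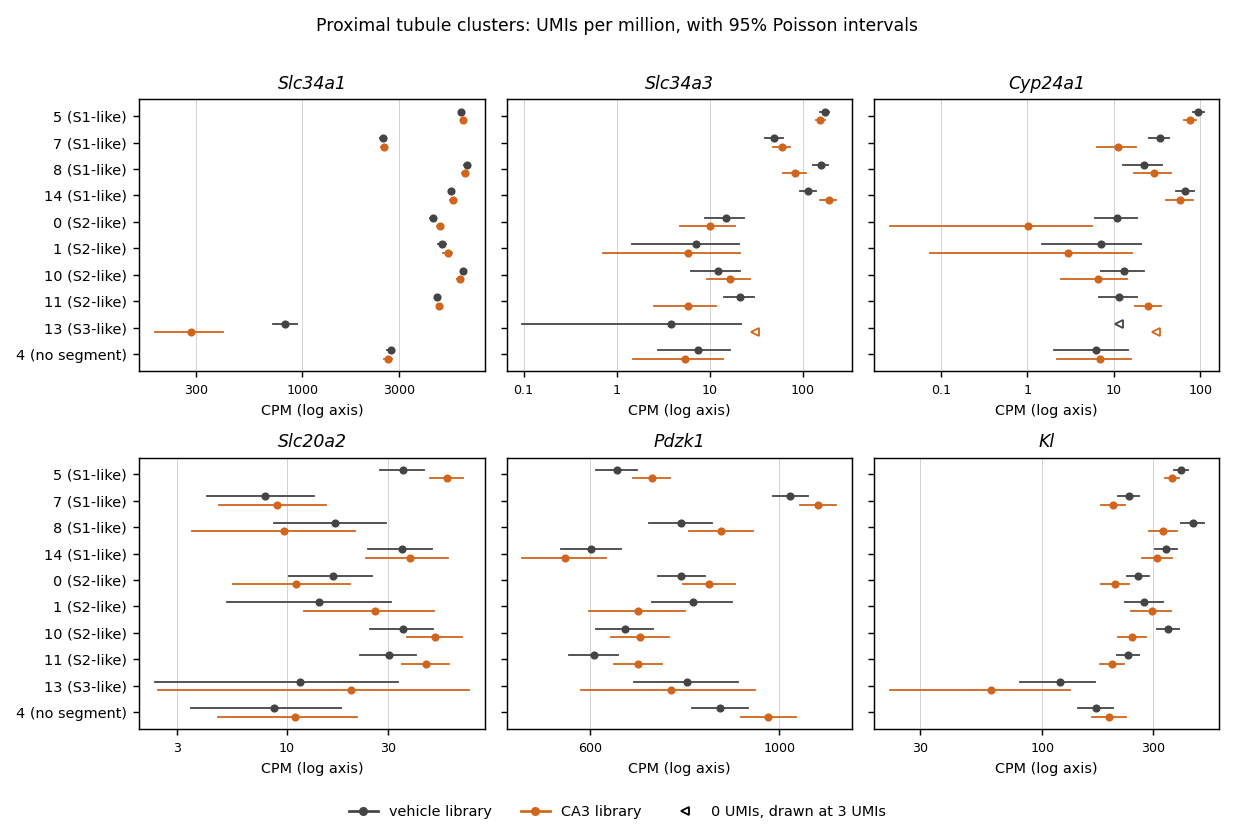
Levels of 6 of the genes in the 10 proximal tubule clusters, in CPM on log axes, with 95% Poisson intervals for each library; open triangles mark 0 UMIs, drawn at 3 UMIs. Slc34a3 is highest in the S1-like clusters and Cyp24a1 in S1-like clusters 5 and 14. Slc34a1 is lowest in S3-like cluster 13, and Pdzk1 keeps its level there.

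Pdzk1 (chr3:96829284-96870926, plus strand) encodes the scaffold NHERF3 and Slc9a3r1 (chr11:115163341-115181181, plus strand) the scaffold NHERF1, both of which anchor the carriers in the brush border. Pdzk1 followed the proximal tubule as closely as Slc34a1, with 96.9% of 15724 UMIs there. Unlike Slc34a1, it kept its level in S3-like cells, at 769.5 CPM (682 to 866) beside 801.5 CPM in S1-like and 704 CPM in S2-like cells. S3-like cells therefore held 114 Pdzk1 UMIs for each 100 of Slc34a1, against 16.1 in S1-like and 13.96 in S2-like cells. The proximal tubule level was 745 CPM in the vehicle library and 800 CPM in the CA3 library, a ratio of 1.07 (1.04 to 1.11), above 1 in 7 of 10 clusters. Over the clusters it was most like Hgd (r = 0.988), Pipox (0.987) and Ddc (0.985), enzymes of amino acid metabolism.

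Slc9a3r1 was less bound to one class. Its level was 177 CPM in the proximal tubule, 150 CPM in intercalated-like cells, 125 CPM in T or NK-like cells and 98.4 CPM in principal-like cells. T or NK-like cells held 29.2 UMIs of it for each 100 of Slc34a1, against 3.73 in the proximal tubule class, a ratio far from that of the proximal tubule. The proximal tubule interval (171 to 183 CPM) overlapped that of intercalated-like cells (118 to 188 CPM), and that one overlapped the interval of T or NK-like cells (103 to 151 CPM). The proximal tubule ratio was 1.02 (0.957 to 1.09), at 175 and 179 CPM. Its nearest gene over clusters was Mrps26 (r = 0.915).

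Kl (chr5:150952607-150993817, plus strand) encodes Klotho, the co-receptor that lets FGF receptors bind FGF23. It was highest in distal nephron-like cells, at 2651 CPM, and then in principal-like cells at 1444 CPM. The distal nephron-like cluster held markers of both the distal convoluted and the connecting tubule. The principal-like cluster, led by Aqp2, also held Trpv5 of the connecting tubule list, and whether it held cells of that segment was not tested. Proximal tubule-like and thick ascending limb-like cells were both at 279 CPM, with overlapping intervals. Because the proximal tubule class is large, it still held 53.4% of the 10335 Kl UMIs. For each 100 UMIs of Slc34a1 there were 382 of Kl in distal nephron-like and 393 in principal-like cells, against 5.89 in the proximal tubule class and, in T or NK-like cells, 9.47. The distal level was 9.501 times the proximal one (9.08 to 9.94), and 5.47 to 9.25 times under 8 other settings. Over clusters its pattern was most like that of Vdr (r = 0.945), the vitamin D receptor gene, at 455 CPM in distal nephron-like, 221 in principal-like and 111 CPM in proximal tubule-like cells. Sgms2 (0.900), a distal convoluted tubule marker, and Emx1 (0.892) came next. Within the last 300 bases of the Kl transcript, 16.7% of its 31-base words also occur in other genes, while the other 9 genes shared none. How reads from these words were counted was not checked.

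Kl was lower in the CA3 library in most proximal tubule clusters. The class held 296 CPM in the vehicle library and 260 CPM in the CA3 library, a ratio of 0.880 (0.834 to 0.928). It was below 1 in 8 of 10 clusters, as were 17.4% of the 2536 features measured in all of them. The lowest were cluster 13, past the limit at 0.509 (0.174 to 1.24) on 31 and 6 UMIs, cluster 10 at 0.701 (0.589 to 0.832) and cluster 8 at 0.75 (0.626 to 0.897). In clusters 13, 10 and 8, 34.7%, 16.2% and 17.4% of features were past 1.5 times. Clusters 1 and 4 were above 1, at 1.07 and 1.14. Of the 5369 features with at least 500 UMIs in the class, 10.4% had a ratio as low.

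In distal nephron-like cells the Kl difference was larger. The 56 vehicle cells held 2119 UMIs (3239 CPM) and the 51 CA3 cells 705 UMIs (1715 CPM), a ratio of 0.529 (0.486 to 0.577). Of 309 features with at least 500 UMIs in the class, 0.971% were as low. At a coarser clustering, where thick ascending limb-like and principal-like cells had no cluster of their own, the ratio was 0.818 (0.767 to 0.872) and not past the limit. Kl was not alone in being lower. Of 6 distal or vitamin D genes read in the same cells, chosen after seeing the data, Slc8a1 had a ratio of 0.602 (0.508 to 0.712), the vitamin D receptor gene Vdr 0.706 (0.578 to 0.858), S100g 0.798 (0.777 to 0.820) and Calb1 0.814 (0.778 to 0.851). Only Slc8a1 of these was past the limit. Of the related list, 46 genes were measured in the class. Of those, 8 were past the limit higher and 7 lower, against 11.2% and 12.6% of all features. The list's median log2 ratio was 0.064. In its FGF23 and Klotho group 3 of 5 were past it higher and 0 lower, and in its vitamin D receptor group 1 of 10 higher and 2 lower. For Slc8a1, Vdr, S100g and Calb1, the 5 richest cells held 33.6% to 50.6% of vehicle and 51.7% to 71.0% of CA3 UMIs. Slc12a3, the thiazide-sensitive sodium chloride carrier of the same cells, was at 8490 and 8765 CPM, a ratio of 1.03. The calcium channel gene Trpv5 was at 1.04 (0.620 to 1.71). Pth1r was at 423 and 426 CPM in the whole class, from a ratio of 1.33 (1.04 to 1.69) in cells with at least 10 Slc12a3 UMIs and 0.645 (0.449 to 0.911) in the others. Depth differed in the same direction as Kl, with medians of 12896.5 and 7078 UMIs a cell, and Kl was carried by few deep cells. The 5 richest cells held 41.8% of its vehicle UMIs and 51.5% of its CA3 UMIs. Among cells with at least 10000 UMIs, 37 vehicle cells were at 3467 CPM and 22 CA3 cells at 1765 CPM (ratio 0.509, 0.462 to 0.560), with medians of 18964 and 17376.5 UMIs a cell. Among shallower cells, 19 vehicle cells were at 1538 CPM and 29 CA3 cells at 1575 CPM (1.02, 0.805 to 1.31). In the deep cells the median Kl count of a cell was 32 UMIs with vehicle and 7 with CA3. The split by depth was chosen after seeing the data, and the difference between deep and shallow cells was not tested. With each cell thinned to 2000 UMIs the ratio was 0.715 (0.562 to 0.906). Cells with at least 10 Slc12a3 UMIs gave 0.585 and the others 0.482. The others had medians of 10626.5 vehicle and 4288 CA3 UMIs a cell, and 5 cells held 84.6% of their CA3 Kl UMIs. A split by raw count also sorts cells by depth, so it cannot tell segment from depth. In principal-like cells the Kl level had the other order, at 1093 CPM in 22 vehicle cells and 1951 CPM in 14 CA3 cells. Each library held fewer than the 30 cells asked of a class, so no ratio was taken there and no direction is read. The share of cells with a Kl UMI, unthinned, did not follow that level. It was 100% with vehicle (84.6 to 100%) and 85.7% with CA3 (57.2 to 98.2%), with overlapping intervals. How many animals these cells came from is not known, and the cause of either difference was not tested.

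**Figure D3:**
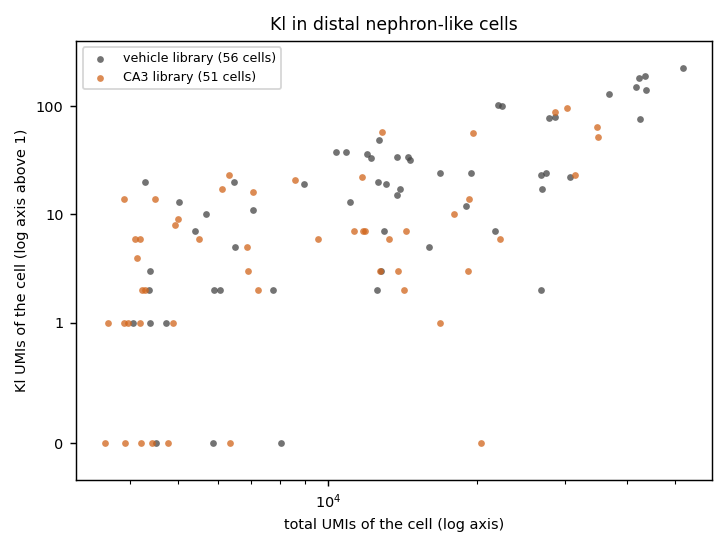
Kl UMIs of each distal nephron-like cell (vertical, log above 1) against the cell's total UMIs (horizontal, log), for 56 vehicle and 51 CA3 cells. Above 10000 total UMIs most CA3 cells lie low among the vehicle cells, with medians of 7 and 32 Kl UMIs, and below it the libraries overlap.

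Fgfr1 (chr8:25513654-25575718, plus strand) encodes the FGF receptor most often named as Klotho's partner for FGF23. It was sparse, with 565 UMIs in 419 cells. The 9 podocyte-like cells held 397 CPM (262 to 577) on 27 UMIs, distal nephron-like cells 60.1 CPM, principal-like cells 40.8 CPM and the proximal tubule class 15.7 CPM. T or NK-like cells held 3 UMIs (3.39 CPM). Distal nephron-like cells, the Kl-rich class, had 8.66 Fgfr1 UMIs for each 100 of Slc34a1, against 0.332 in the proximal tubule. Of the other FGF receptor genes, Fgfr2 and Fgfr4 were picked after their values were seen. Fgfr3 was at 30.97 CPM in the proximal tubule and 2.81 CPM in distal nephron-like cells, and Fgfr4 at 16.0 and 1.88 CPM, the reverse of the order of Fgfr1. Fgfr2 had the same order as Fgfr1, at 0.455 and 21.6 CPM. The proximal tubule ratio of Fgfr1 was 1.19 (0.948 to 1.499), at 14.4 and 17.2 CPM. Like Slc20a2, Fgfr1 was richer in the deep clusters, from 4.18 CPM in cluster 7 to 24.7 CPM in cluster 10. In cluster 10 its ratio was 1.75 (0.939 to 3.34) on 18 and 29 UMIs, where 16.2% of features were past the limit. Lsr (r = 0.915), Dnajb14 (0.884) and Xbp1 (0.878) were most like it.

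Pth1r (chr9:110722085-110747145, minus strand) encodes the PTH receptor. Podocyte-like cells held the highest level, 955 CPM (737 to 1218), from 65 UMIs against 3 of Slc34a1, and all 9 cells had a UMI. Distal nephron-like cells followed at 424 CPM (386 to 465), then the proximal tubule at 328 CPM (320 to 336) and thick ascending limb-like cells at 323 CPM (290 to 360), the last 2 with overlapping intervals. At a coarser clustering the distal level was 0.820 times the proximal one in place of 1.295 times. For each 100 Slc34a1 UMIs there were 6.91 of Pth1r in the proximal tubule and 6.58 in T or NK-like cells, so its few UMIs in lymphocytes kept the proximal tubule ratio. Thick ascending limb-like cells held 65.8 and distal nephron-like cells 61.2. Within the proximal tubule Pth1r was at 299 CPM in S1-like, 369 CPM in S2-like and 364 CPM in S3-like cells. Unlike Slc34a1, it thus kept its level in S3-like cells. Over the proximal tubule clusters it ran from 256 to 438 CPM. Its proximal tubule ratio was 1.02 (0.972 to 1.07), at 325 and 331 CPM. Sardh (r = 0.937), Tmem53 (0.936) and Cisd1 (0.933) had the most similar pattern.

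**Figure D4:**
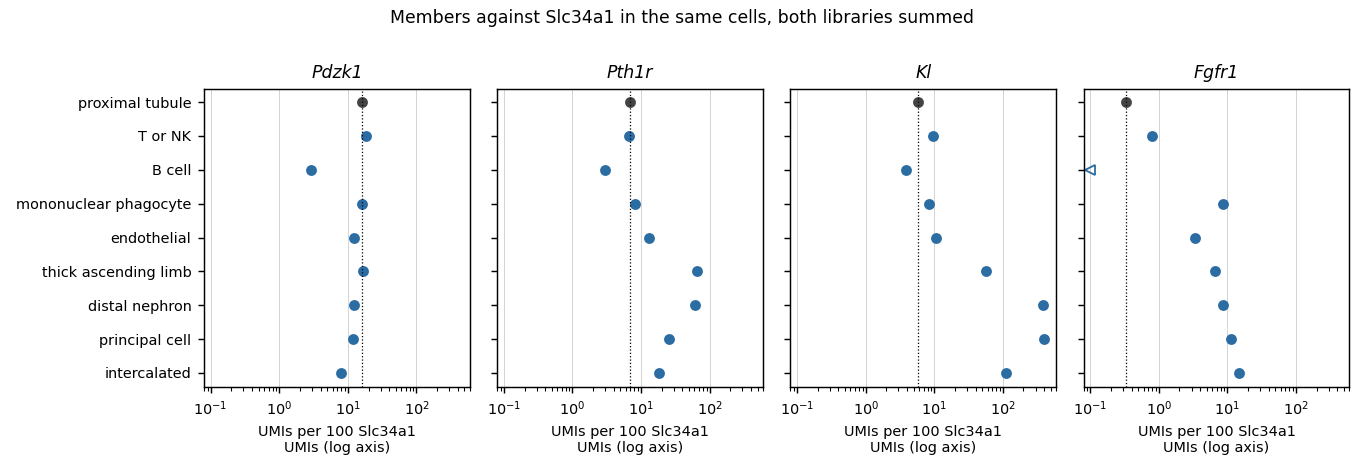
UMIs of Pdzk1, Pth1r, Kl and Fgfr1 for each 100 UMIs of Slc34a1 in the same cells, both libraries summed, on a log axis, by class; the dotted line is the proximal tubule value and the open triangle marks 0 UMIs. Pdzk1 stays near the line in T or NK-like, mononuclear phagocyte-like and thick ascending limb-like cells, while Pth1r and Kl lie far to its right in thick ascending limb-like and distal nephron-like cells.

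Cyp27b1 (chr10:127048250-127053006, plus strand) encodes the enzyme that makes active vitamin D, and Cyp24a1 (chr2:170482708-170497145, minus strand) the enzyme that breaks it down. Cyp27b1 was close to undetected, with 26 UMIs in 23 of 3261 cells, of which 22 UMIs lay in the proximal tubule and 4 in endothelial-like cells. The proximal tubule sums were 10 vehicle and 12 CA3 UMIs, a ratio of 1.37 (0.542 to 3.53), so no difference inside this interval was detectable at this depth. Cyp24a1 had 666 UMIs in 215 cells, 98.0% of them in the proximal tubule. Like Slc34a3, it was highest in S1-like cells, at 54.9 CPM, beside 11.5 CPM in S2-like cells. The 44 S3-like cells held 0 UMIs, where 0 allows up to 10.2 CPM. The S1-like clusters were uneven, at 85.0 CPM in cluster 5 and 63.7 CPM in cluster 14. Clusters 7 and 8 held 23.1 CPM (18.1 to 29.1) and 25.5 CPM (17.7 to 35.7). Both intervals overlapped that of S2-like cluster 11, at 18.0 CPM (13.4 to 23.6). The S1-like level was 4.79 times the S2-like one (3.82 to 6.06), 7.82 times when the 3 richest cells per library were left out, and 2.75 times at the coarser clustering.

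Cyp24a1 differed from Slc34a3 in how it was spread over single cells. In 1297 S1-like cells, 13.2% had a Cyp24a1 UMI, and 38 cells with at least 5 UMIs held 57.9% of them. Slc34a3 was found in 42.0% of the same cells, and cells with at least 5 UMIs held 26.5%. The variance of Cyp24a1 UMIs was 6.63 times their mean, against 2.58 times for Slc34a3. The split held in each library, with 22 such Cyp24a1 cells in the vehicle and 16 in the CA3 library. Among S1-like cells with Slc34a3, 20.2% also had Cyp24a1, against 8.11% of those without, but the first were deeper (medians 10361 and 6168 UMIs). Over clusters Cyp24a1 was most like Adra1a (r = 0.909), a receptor for adrenaline, Nap1l5 (0.888) and Slc36a1 (0.871).

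The proximal tubule level of Cyp24a1 was 35.5 CPM in the vehicle library and 30.2 CPM in the CA3 library, a ratio of 0.850 (0.725 to 0.995). S1-like cells gave 60.8 and 48.4 CPM, a ratio of 0.796 (0.669 to 0.945). The clusters did not move alike. Cluster 7 was at 33.8 and 11.0 CPM (0.325, 0.174 to 0.575), where 13.1% of features were past the limit. Cluster 11 was at 11.5 and 25.03 CPM (2.18, 1.18 to 4.15), but there 3 cells held 94.1% of 17 vehicle UMIs and 79.4% of 34 CA3 UMIs. Over the whole class 3 cells held 14.4% of the vehicle and 15.4% of the CA3 UMIs, and the intervals, which treat UMIs as independent, do not cover that clumping.

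The first comparison asked how CA3 kidneys differed from vehicle kidneys after rhabdomyolysis in the proximal tubule, where the phosphate carriers work. None of the 10 genes was past 1.5 times there, while 7.23% of 11719 measured features were (3.76% higher and 3.46% lower). That share was 30.3% for features with 20 to 100 UMIs and 0.689% for those with at least 500. Of the 10 genes, all but Fgfr1 and Cyp27b1 had at least 500 UMIs in the class. Having none past the limit is thus close to the share at that depth. The range ran from 0.850 for Cyp24a1 to 1.40 for Slc20a2, and the median log2 ratio was 0.042, beside 0.0081 over all features. Slc20a2 passed the limit under 2 other settings, at 1.51 (1.24 to 1.84) with the stricter cell filter and at 1.55 (0.847 to 2.83) in cells chosen by markers alone. With cells thinned to 2000 UMIs it was at 1.13 (0.748 to 1.70). Within the class, summed markers of other cell types differed between the libraries, in both directions. The connecting tubule markers were at 447 CPM in the vehicle and 618 CPM in the CA3 library with none of the 5 markers at 0. They include Calb1, S100g, Trpv5 and Slc8a1, which are also genes of the related list. The 6 thin limb markers were at 565 and 490 CPM, and the 6 thick ascending limb markers at 153 and 82.6 CPM with none at 0. The 5 erythroid markers were at 843 and 278 CPM, also with none at 0, and the 9 macrophage or monocyte markers at 10.4 and 30.2 CPM, with 1 at 0 in the vehicle library. Their part in the ratios was not tested.

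**Figure D5:**
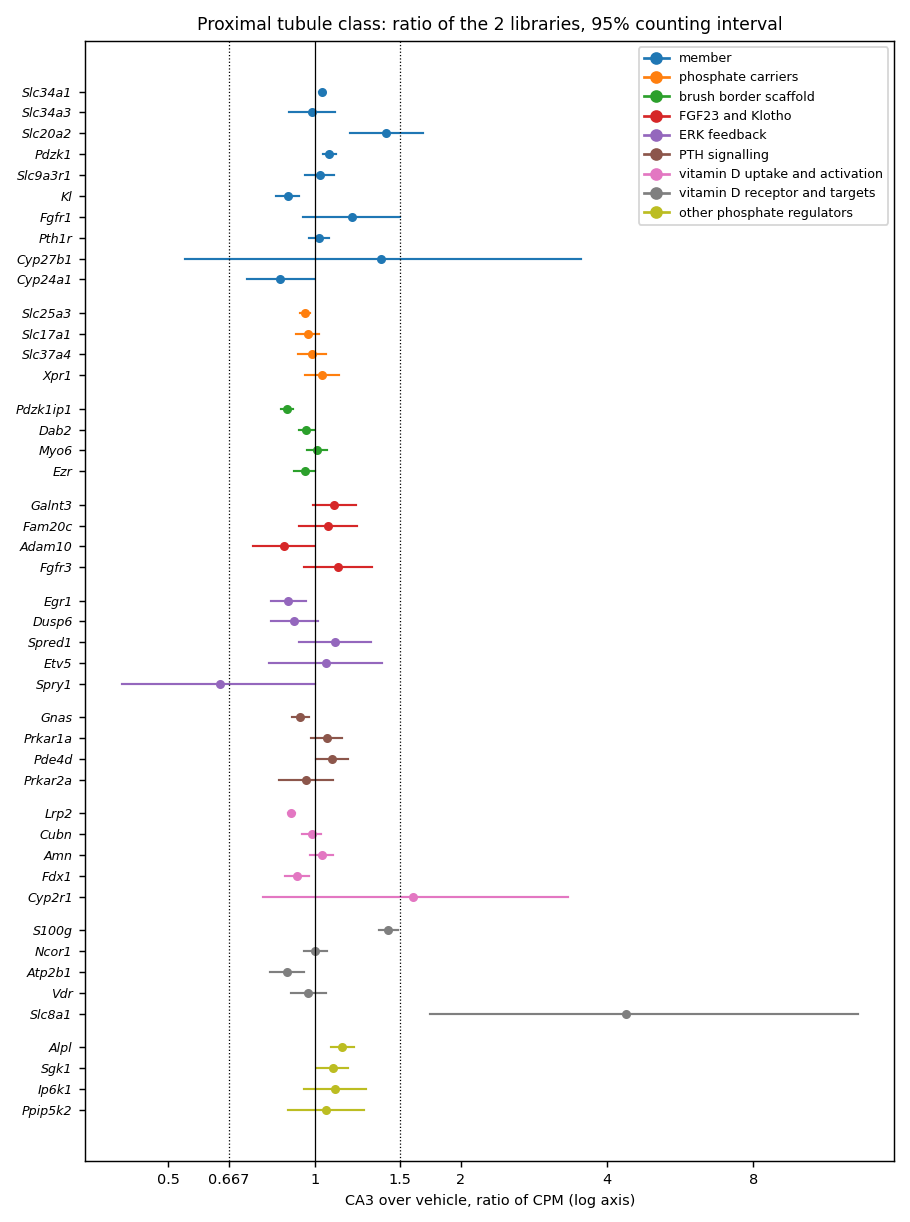
Ratio of CA3 over vehicle CPM in the proximal tubule class on a log axis, with 95% counting intervals, for the 10 genes and the named genes of each group of the related list; dotted lines mark 1.5 times. The points of all 10 genes lie between the lines, and Spry1, Cyp2r1 and Slc8a1 lie outside them.

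The other genes of the pathway were read from a list of 8 groups, of which 74 genes were found and 60 had enough UMIs in the proximal tubule. Of these, 2 were past the limit higher and 1 lower, against 3.76% and 3.46% of all features, and the list's median log2 ratio was 0.050. Among other phosphate carriers, 0 of 5 were past it, with Xpr1, the phosphate exporter, at 116 and 121 CPM, and Slc17a1, a weak brush border phosphate carrier, at 282 and 272 CPM. Of the brush border scaffold group 0 of 7 were past it, with Pdzk1ip1, a partner of PDZK1, at 1053 and 926 CPM (0.879) and Ezr, the ezrin that ties NHERF proteins to actin, at 316 and 302 CPM. Of the FGF23 and Klotho group 0 of 7 were past it. Galnt3, which protects FGF23 from cleavage, was at 73.4 and 80.7 CPM, and Fgf23 itself had 0 UMIs in kept cells. Of the ERK feedback group, genes that FGF signals induce, 1 of 7 was past the limit, Spry1 at 57 and 32 UMIs (0.640, 0.402 to 1.003). Egr1 was at 130 and 115 CPM (0.883) and Dusp6 at 67.2 and 61.1 CPM (0.909). Of the PTH signalling group 0 of 9 were past it, with Gnas, the stimulatory G protein, at 532 and 497 CPM.

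Vitamin D enters the proximal tubule with its carrier protein through megalin and cubilin. Lrp2, megalin, was at 2768 and 2478 CPM, a ratio of 0.895 (0.880 to 0.911), and Cubn, cubilin, at 389 and 384 CPM. Of the 8 genes of uptake and activation, only Cyp2r1, a vitamin D 25-hydroxylase, was past the limit, on 15 and 21 UMIs (1.60, 0.784 to 3.33). Of the 9 measured genes of the vitamin D receptor group, 1 was past it, the sodium-calcium exchanger gene Slc8a1, on 6 and 23 UMIs (4.37). Vdr was at 113 and 109 CPM (0.971). S100g, calbindin-D9k, was at 343 and 487 CPM (1.42, 1.36 to 1.48), and Calb1, calbindin-D28k, at 24.98 and 37.5 CPM (1.499, 1.27 to 1.77). S100g, Calb1 and Slc8a1 are distal genes: their levels were 22893, 7997 and 660 CPM in distal nephron-like cells. T or NK-like cells held 234, 30.5 and 1.13 CPM of them, beside 411, 30.8 and 1.47 CPM in the proximal tubule class. The lymphocyte value of Slc8a1 rests on 1 UMI, and the part of free RNA in these 3 ratios was not tested. Of the other phosphate regulators 0 of 8 were past the limit, with the alkaline phosphatase gene Alpl at 244 and 279 CPM (1.14) and Sgk1 at 145 and 158 CPM (1.09).

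Over all kept cells none of the 10 genes was past the limit, where 13.9% of 13980 features were. Kl was lowest, at 434 and 330 CPM (0.760, 0.730 to 0.791), and Slc20a2 highest, at 21.6 and 30.9 CPM (1.43, 1.23 to 1.67). In whole-library sums, the number of cells of each class and the RNA per cell cannot be told apart. Of 66 measured genes of the list 1 was past it higher (6.87% of features were) and 7 lower (7.04%). The 7 were Slc34a2, Slc9a3r2, Spry4, Trpv6, Casr, Slc8a1 and Stc1, at ratios from 0.330 for Stc1 to 0.652 for Slc9a3r2. Their highest levels lay outside the proximal tubule. Slc9a3r2, the scaffold NHERF2, was at 457 CPM in endothelial-like cells, Casr, the calcium-sensing receptor, at 91.2 CPM in thick ascending limb-like cells, and Stc1, a calcium and phosphate hormone, at 122 CPM in principal-like cells. For Stc1, 3 cells held 72.0% of the vehicle UMIs.

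Outside the proximal tubule, ratios of the genes moved widely on few UMIs. In thick ascending limb-like cells 3 of 7 measured genes were past the limit, where 27.1% of features were. Slc34a1 was at 673 and 129 CPM (0.192) and Pdzk1 at 107 and 28.7 CPM (0.269), and 3 cells held 71.1% and 80% of their CA3 UMIs. Pth1r, whose UMIs there did not follow Slc34a1, was at 277 CPM in 71 vehicle cells and 417 CPM in 41 CA3 cells (1.51, 1.21 to 1.88). In distal nephron-like cells 3 of 7 were past it, against 23.7% of features: Kl, as above, Slc20a2 on 11 and 14 UMIs (2.03, 0.854 to 4.93), and Pdzk1 on 42 and 48 UMIs (1.82). In endothelial-like cells 4 of 7 were past it, against 24.9%. Slc34a1 was at 502 and 1201 CPM (2.39), with 71.0% of its CA3 UMIs in 3 cells, Slc20a2 at 19.4 and 43.8 CPM (2.26) and Kl at 62.9 and 104 CPM (1.66). Fgfr1 was at 30.97 and 10.4 CPM (0.337) on 32 and 5 UMIs. Among T or NK-like cells 3 of 5 were past it, against 25.7%, and all 3 were lower (12% of features were), namely Slc34a1 (0.555), Pdzk1 (0.515) and Kl (0.202). In mononuclear phagocyte-like cells 4 of 6 were past it, against 29.4%. These were Slc34a1 (0.558), Pdzk1 (0.585) and Kl (0.233), lower, and Fgfr1, higher, on 8 and 23 UMIs (2.67, 1.15 to 6.91). In these 2 immune classes 3 cells held between 51.4% and 83.3% of each library's UMIs of Slc34a1, Pdzk1 and Kl. Pdzk1 stood at 18.4 and 15.8 UMIs for each 100 of Slc34a1, against 16.3 in the proximal tubule.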

How the data were processed

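The authors deposited a matrix of UMI counts for each library, not normalized, from 10x Chromium 3′ libraries per the labels' protocols. Cell Ranger 3.0.1 and mm10 are named in the submitters' processing notes, and cell calling settings were not given in the sources used here. Gene positions are GENCODE's on mm10. Kept cells, 3261 in all, had 500 genes or more and a mitochondrial share of UMIs up to 50%. They were clustered with scanpy 1.11.5 and python-igraph 0.11.9 (2000 variable genes, 30 components, 15 neighbours, Leiden resolution 1), and the 21 clusters were named "-like" from marker lists. The 10 genes and the related list were kept out of the clustering. No doublet caller was run, so doublets may remain, and cells gated by markers (330 vehicle, 217 CA3) were an alternative. UMIs were summed per library and class. Ratios carry exact conditional binomial intervals, levels exact Poisson and shares exact Clopper-Pearson intervals (scipy 1.17.1, numpy 2.4.6). Only the ratio intervals were tried on simulated data. Those counts were drawn as Poisson counts without clumping in single cells, so the trial cannot show coverage for clumped genes. Features needed 20 UMIs for a ratio. All 10 genes are named. Of each list group, the up to 4 genes with most proximal tubule UMIs and those past 1.5 times could be named, and for each of the 10 with at least 200 UMIs the 3 genes most alike, of which some are not reported here. Genes and lists were chosen with earlier results of these data known. Alternatives changed the cell filter, depth, denominator, clustering, gate, UMI minimum and richest cells.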

Additional observations from a re-analysis of the deposited data

Results flagged for a closer look

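Some genes had ratios on opposite sides of 1, each with a counting interval that left out 1, in 2 classes or in 2 proximal tubule clusters. None of these differences was tested, since each group had 1 library. Slc34a1 was at 1.03 in the proximal tubule class but at 0.192 in thick ascending limb-like, 0.555 in T or NK-like and 0.558 in mononuclear phagocyte-like cells. Pdzk1 was at 1.07 in the proximal tubule class, 0.269 in thick ascending limb-like and 0.515 in T or NK-like cells. Kl was at 0.880 in the proximal tubule class and 1.66 in endothelial-like cells.

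Within the proximal tubule, Slc34a1 was at 1.08 in cluster 0, 0.959 in cluster 10 and 0.343 in cluster 13. Slc34a3 was at 0.529 in cluster 8 and 0.281 in cluster 11, but at 1.67 in cluster 14. Cyp24a1 was at 0.325 in cluster 7 and 2.18 in cluster 11.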

How the results depend on the processing

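No paired analysis was possible because each group had 1 library, and for the same reason no library could be left out. Under other settings 33 summary values stayed near the reported ones and 13 moved. In the proximal tubule class, where none of the 10 genes was past 1.5 times, 1 was in cells gated by markers and 1 under the stricter cell filter. Over all kept cells 1 was under the stricter filter. The count of 3 list genes became 5 without the 3 richest cells of each library, 8 with no UMI minimum, 0 with a minimum of 100 UMIs, 10 with the marker gate and 5 with the stricter filter. The 17 ratios past the limit in the other classes became 3 after thinning and 8 with the stricter filter. The S1-like over S2-like level of Slc34a3, 9.32, was 12.2 without the richest cells, 13.2 with the stricter filter and 3.55 at Leiden resolution 0.5. The Kl ratio of distal nephron-like cells turned to 1.02 in cells under 10000 UMIs, and was 0.818 at resolution 0.5, where thick ascending limb-like, principal-like and mononuclear phagocyte-like cells had no cluster of their own. The stricter filter left 38 distal cells, too few for that ratio. Fgfr1 in the proximal tubule class was at 0.742 with the marker gate against 1.19, and Cyp27b1 at 0.416 after thinning against 1.37. Causes were not tested. Depth limits Cyp27b1 most, with 26 UMIs in all.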

Other observations

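Related genes outside the account above had their own places, and all those named here were picked after their levels were seen. Slc20a1, which encodes the carrier Pit-1, was highest in T or NK-like cells among the classes with over 100 cells, at 80.2 CPM, with 36.5 CPM in the proximal tubule class. Slc34a2, the third carrier of the Slc34 family, was at 30.4 CPM in endothelial-like and 19.2 CPM in thick ascending limb-like cells, and at 0.607 CPM in the proximal tubule class. Slc9a3r2 was at 457 CPM in endothelial-like, 441 CPM in podocyte-like and 3.79 CPM in proximal tubule-like cells. Trpv5, the apical calcium channel, was at 148 CPM in principal-like and 66.7 CPM in distal nephron-like cells. Fgfr2 reached 94.2 CPM in principal-like cells, where Kl was at 1444 CPM.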
